A study of Mus musculus with 4 samples.

Results

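The natural killer (NK) cells of mouse blood were 397 cell barcodes of 17546 kept in the series, 219 in the library of the IgG group and 178 in the library of the EBA group. A blood barcode was kept with at least 200 detected genes and no more than 10% of its unique molecular identifiers (UMIs, one per captured RNA molecule) from mitochondrial genes. It was counted as an NK cell when Ncr1, Klrb1c and Klre1 together had 2 or more UMIs while Cd3d and Cd3g, parts of the T cell receptor complex, and Cd79a, part of the B cell receptor, had none. Both groups were C57BL/6J mice aged 6 to 8 weeks that were injected over 2 weeks, 3 times in each, with 250 µg of antibody. The IgG group was given control rabbit IgG. The EBA group was given antigen affinity purified IgG against the vWFA2 domain of collagen VII (vWFA2-COL7), an antibody transfer model of the blistering disease epidermolysis bullosa acquisita. Whole blood of 3 mice per group was pooled after lysis of red cells and sequenced as 1 library, so the groups had no replicates and no test between them was possible. Values are therefore called higher or lower by size alone, and their intervals are exact 95% intervals that cover counting error only, not differences between mice or between library preparations.

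NK cells are lymphocytes without a rearranged antigen receptor that kill target cells through perforin and granzymes and release chemokines and interferon gamma. Germline-encoded receptors set their response: activating ones such as Ncr1 (NKp46), Klrb1c (NK1.1), Klrk1 (NKG2D) and the IgG receptor Fcgr3 signal through the adaptors Tyrobp, Hcst and Fcer1g, while the inhibitory Ly49 receptors and the Klrd1-Klrc1 pair bind MHC class I molecules. Mouse NK cells mature from Cd27-positive cells to cells that have lost Cd27 and carry the integrin Itgam (CD11b), and blood holds mostly the later stages.

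The 3 genes of the gate chose these cells, so their values are given as a description. All 3 were detected in 190 of the 219 IgG cells and in 141 of the 178 EBA cells. Their summed UMIs per cell ran from 2 through a median of 11 to 34 in IgG and from 2 through 9 to 28 in EBA. Ncr1 lies at chr7:4337724-4345164 of GRCm38, while Klrb1c (chr6:128778485-128789215) and Klre1 (chr6:129577905-129585827) lie in the NK receptor region of chromosome 6. Among genes outside the gate, Gzma, which encodes granzyme A, was detected in 217 of 219 and in 178 of 178 cells, and the granule membrane gene Nkg7 in 218 of 219 and in 178 of 178. Cells just inside the gate, with 2 UMIs, numbered 6 in IgG and 4 in EBA and held Nkg7 at 3095 and 3438 CPM (the UMIs of a gene scaled to 1000000 UMIs of the summed cells). Barcodes just outside it, with 1 UMI, numbered 5 and 10 and held Nkg7 at 802 and 54.2 CPM. Blood barcodes that also lacked Cd3d, Cd3g and Cd79a and had no gate UMI held Nkg7 at 3.04 and 3.33 CPM.

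NK cells made up 4.85% of kept barcodes in IgG (interval 4.24% to 5.52%, 219 of 4512) and 5.21% in EBA (4.49% to 6.00%, 178 of 3419), and these intervals overlap. Set against lymphocytes alone, the shares were apart. NK cells were 6.29% of NK, T and B cells in IgG (5.51% to 7.15%) and 10.9% in EBA (9.44% to 12.5%). The same 2 libraries held 2098 and 810 B cells and 1163 and 643 T cells, gated on the same markers. Whether NK cells took a larger share in EBA therefore depended on the denominator.

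The depth of the NK cells differed less than their background. Their median UMI count was 3705 in IgG and 3124 in EBA, with medians of 1661 and 1355 detected genes and 2.57% and 3.38% mitochondrial UMIs. The sums over all NK cells were 893913 and 695944 UMIs. Ribosomal protein genes took 17.4% and 20.7% of them, and Gm42418, a transcript that overlaps ribosomal RNA sequence, took 5.68% and 2.80%. Haemoglobin genes took 0.0126% and 1.86%, and 3 barcodes held 97.4% of the red cell marker UMIs of EBA. The 10 neutrophil markers, all detected in EBA, summed to 213 CPM in IgG and 30087 CPM in EBA, where 3 barcodes held 85.2% of those UMIs. A neutrophil marker UMI was present in 14 of 219 IgG cells (6.39%) and 127 of 178 EBA cells (71.3%). Monocyte markers summed to 743 and 1687 CPM and platelet markers to 709 and 1283 CPM. The 10 T cell markers had 136 UMIs in 73 of 219 IgG cells (33.3%) and 116 UMIs in 58 of 178 EBA cells (32.6%), of which Trbc2 gave 121 and 110, while Cd4, Cd8a, Cd5 and Cd6 were at 0. Of the gamma-delta T cell markers only Trdc was detected, in 51 IgG cells (23.3%) and 36 EBA cells (20.2%). The 8 B cell markers had 75 UMIs in 51 IgG cells (23.3%) and 35 UMIs in 27 EBA cells (15.2%), of which Ighm gave 61 and 35, and Ms4a1 and Cd22 were at 0. Requiring Cd3e, Trac and Trdc to be at 0 as well left 157 and 139 cells, with 73 genes higher and 227 lower in EBA by the 2-fold rule used below. Barcodes with 10 or more UMIs of another lineage's markers numbered 13 of 219 in IgG and 16 of 178 in EBA. By a stricter limit, 2 or more myeloid (S100a8, S100a9 and Lyz2) or MHC class II UMIs, 5 or more haemoglobin UMIs or any Pf4 or Ppbp UMI, the numbers were 35 (16.0%) and 93 (52.2%). Over all NK cells, results are also given without the 29 barcodes of the first limit where a named gene thereby crossed a 2-fold difference. No NK barcode sequence was shared between the blood libraries.

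The comparison of EBA with IgG asked how circulating NK cells differ after transfer of the pathogenic antibody. UMIs were summed over the NK cells of each library, and 4189 genes with 50 or more UMIs over both sums counted as measured. A gene was called at a CPM ratio of 2 or more, or of 0.5 or less. By this rule 83 genes (1.98%) were higher in EBA and 292 (6.97%) were lower, and 2768 (66.1%) had a ratio under 1. Counts on the gene lists below are to be read beside these shares. The median gene had a log2 ratio of -0.20, and relative to it 103 genes (2.46%) were higher and 133 (3.17%) lower. Without the barcodes that held another lineage, 3742 genes were measured, of which 24 (0.641%) were higher and 198 (5.29%) lower, with a median of -0.11. In bulk sums such as these, fewer cells that express a gene and less RNA per cell cannot be told apart, so shares of cells are given for the main genes.

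**Figure D1:**
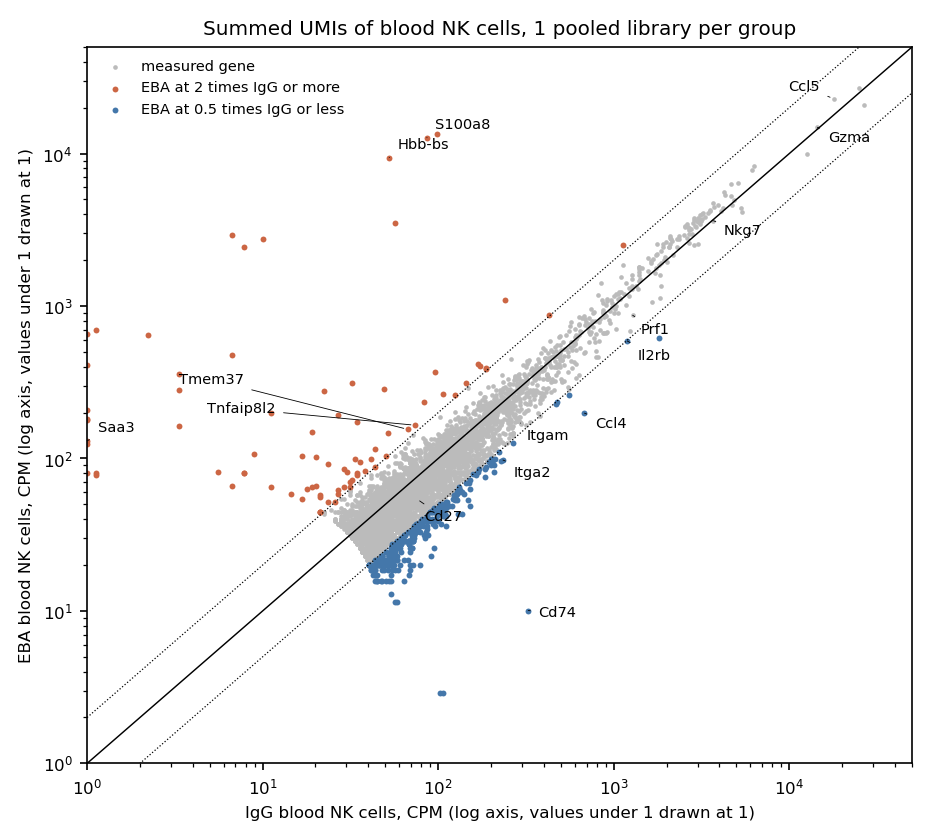
CPM of every measured gene in the NK cells of the IgG library (x axis) and of the EBA library (y axis), both on log axes, with 1 point per gene, the line of equality and dotted lines at 2-fold. Genes of the killing machinery such as Gzma and Nkg7 lie near the line of equality, Ccl4 and Il2rb lie below the lower dotted line, and the points far above the upper line at the left include neutrophil and red cell genes (S100a8, Hbb-bs).

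Genes of the killing machinery had no call. Gzma stood at 14453 CPM in IgG and 14859 CPM in EBA, a ratio of 1.03 (1.00 to 1.06). Gzmb, which encodes granzyme B, stood at 1016 and 963 CPM (ratio 0.95, 0.86 to 1.05), and Nkg7 at 3698 and 3622 CPM. Of the 20 genes on the list of cytotoxic granule proteins and death ligands, 16 were measured and none passed 2-fold in either direction, with a median log2 ratio of -0.02. Perforin (Prf1), which forms the pore through which granzymes enter a target, was among the lower members, at 1282 and 869 CPM (ratio 0.68, 0.61 to 0.75). Unc13d, which primes granules for release, had a ratio of 0.55, and Lamp1, a granule membrane protein, 1.33.

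Activating receptors had a single call. Of 11 measured activating and adhesion receptors, 1 was called higher and none lower, and the median log2 ratio was -0.12. Klrk1 stood at 1176 CPM in IgG and 1010 CPM in EBA, and its activating relative Klrc2 at 475 and 415 CPM. The call was Fcgr3, the low-affinity receptor through which NK cells bind IgG, at 51.5 and 148 CPM (ratio 2.88, 2.01 to 4.17). It was detected in 40 of 219 and 42 of 178 cells. In EBA, 45.6% of its UMIs came from 3 barcodes. Without the barcodes that held another lineage the levels were 51.4 and 77.5 CPM, a ratio of 1.51 (0.956 to 2.38), so Fcgr3 was no longer called. Neutrophils and monocytes carry Fcgr3 too. T cells of the same libraries stood at 10.7 and 99.0 CPM, a ratio of 9.25. The other IgG receptor genes of the list were thinner in NK cells, with Fcgr2b at 42.5 and 35.9 CPM and Fcgr4 at 0 and 11 UMIs.

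The adaptors and signalling proteins below these receptors showed no call. Tyrobp stood at 2846 and 3520 CPM (ratio 1.24, 1.17 to 1.31) and Fcer1g at 2699 and 2956 CPM (1.09, 1.03 to 1.16). Of the 16 measured members 11 (68.8%) had a ratio under 1, near the 66.1% of all measured genes. Relative to the median gene 9 lay below it and 7 above. The lowest ratio was that of the kinase Syk, which stood at 132 and 66.1 CPM (ratio 0.50, 0.35 to 0.71), just short of a call. The scaffold Lcp2 followed at 107 and 56.0 CPM (0.52), and the highest ratio was that of the phosphatase Ptpn6 at 99.6 and 134 CPM (1.34). Syk and Lcp2 both had a ratio of 0.45, and were called lower, without the barcodes that held another lineage.

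Receptors for MHC class I showed no call either. A UMI of at least 1 Ly49 gene was present in 97.7% of IgG cells (94.8% to 99.3%) and 98.9% of EBA cells (96.0% to 99.9%), and the median cell had 3 Ly49 genes detected in each library. The activating members Klra4 (Ly49D) and Klra8 (Ly49H) stood at 977 and 980 CPM and at 790 and 660 CPM, and the inhibitory Klra7 (Ly49G) at 489 and 405 CPM. Klra3 (Ly49C) had the lowest ratio of the 6 measured members, 0.69 (0.55 to 0.86), and 0.90 without the barcodes that held another lineage. Ly49 genes are close copies of one another, so the way reads were shared among them is uncertain. The partners Klrd1 (1269 and 1354 CPM) and Klrc1 (178 and 213 CPM) had ratios of 1.07 and 1.20.

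Secreted factors divided between Ccl5 and the rest. Ccl5, a chemokine for T cells and monocytes, stood at 17958 CPM in IgG and 22851 CPM in EBA (ratio 1.27, 1.24 to 1.30). Ccl4, a chemokine induced on activation, stood at 681 and 198 CPM (ratio 0.29, 0.24 to 0.35). The shares of cells with a Ccl4 UMI were closer, 32.9% (26.7% to 39.5%) and 29.8% (23.2% to 37.1%), and 3 IgG barcodes held 56.3% of its IgG UMIs. Leaving out the 3 highest barcodes of each library gave a ratio of 0.40. Its neighbour Ccl3 stood at 197 and 103 CPM (ratio 0.53, 0.39 to 0.70), and its ratio was 0.96 without the 3 highest barcodes. With Cd3e, Trac and Trdc also at 0, the log2 ratio of Ccl3 was -1.44, past 2-fold. Xcl1, a chemokine for cross-presenting dendritic cells, stood at 201 and 96.3 CPM (0.48, 0.36 to 0.64), and interferon gamma (Ifng) at 92.9 and 50.3 CPM (0.54, 0.35 to 0.81). Of the 8 measured cytokines and chemokines, 2 were called lower (Ccl4 and Xcl1) and none higher, with 7 of 8 ratios under 1. Over all measured genes, 6.97% were called lower and 66.1% had a ratio under 1. Ccl4 was also called relative to the median gene and without the barcodes that held another lineage (0.35), and Xcl1 in neither case.

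Il2rb, which encodes the receptor chain shared by interleukin 2 and interleukin 15, was called lower. It lies at chr15:78479256-78495271. It stood at 1195 CPM in IgG and 589 CPM in EBA (ratio 0.49, 0.44 to 0.55). A UMI was present in 213 of 219 IgG cells and 140 of 178 EBA cells. After each cell was thinned to 1000 UMIs, the shares were 68.3% (61.7% to 74.5%) and 50.9% (43.2% to 58.5%). B cells, in which it serves as background, had 1 of 2098 and 0 of 810 cells with a UMI. Relative to the median gene its log2 ratio was -0.82, short of 2-fold, and without the barcodes that held another lineage its ratio was 0.54. T cells, with 106 and 62.9 CPM, had a ratio of 0.59. Of 13 measured cytokine receptors, Il2rb and Il10ra (125 and 56.0 CPM, 0.45) were called lower, neither of them relative to the median gene or without the barcodes that held another lineage, and the interferon gamma receptor Ifngr1 stood at 662 and 829 CPM (1.25).

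Genes with at least 100 CPM in the higher sum, other than markers of other lineages, were ranked by the bound of their interval nearest to 1, and the 12 ranked highest in each direction are plotted with their intervals. Tmem37, which encodes a membrane protein related to calcium channel subunits, stood at 67.1 CPM in IgG and 155 CPM in EBA (ratio 2.31, 1.67 to 3.23). It was detected in 51 of 219 (23.3%) and 83 of 178 (46.6%) cells. At 1000 UMIs per cell the shares were 5.05% (2.55% to 8.85%) and 18.3% (12.9% to 24.8%). T cells had it in 5 of 1163 and 5 of 643 cells. Its ratio without the barcodes that held another lineage was 2.75. Khdc1a stood at 67.1 and 126 CPM (ratio 1.88, 1.34 to 2.66), detected in 40 and 55 cells, and passed 2-fold without those barcodes, at 2.03, and relative to the median gene, at 2.16. Its shares at 1000 UMIs per cell were 6.88% (3.90% to 11.1%) and 11.4% (7.12% to 17.1%), and these intervals overlap. Tnfaip8l2, a negative regulator of immune signalling, stood at 73.8 and 165 CPM (ratio 2.24, 1.64 to 3.08), and in T and B cells its ratios were 1.55 and 1.74. The NK shares with a Tnfaip8l2 UMI at 1000 UMIs per cell were 7.80% (4.61% to 12.2%) and 16.6% (11.4% to 22.9%), whose intervals overlap. Saa3 was listed with 91 UMIs in 3 EBA barcodes and 0 in IgG. Its ratio was 39.0 against a floor of 3 counts in the IgG sum, with an exact lower bound of 31.0. This ratio therefore rested on 3 cells, with all but 1 UMI in barcodes that held another lineage. The other 7 ranked genes were below 2-fold. They included Ctla2a (817 and 1183 CPM, 1.45), AY036118 (1.44), ubiquitin B (Ubb, 1.37), the histone gene H3f3a (1.41), Ms4a6b (1.82) and the respiratory chain assembly gene Cox7a2l (1.54). Car2 (carbonic anhydrase 2) had a ratio of 1.83, and 1.00 without the barcodes that held another lineage. Relative to the median gene, Car2 (2.10) and Ms4a6b (2.08) passed 2-fold. In the cells that also lacked Cd3e, Trac and Trdc, the log2 ratio of Ctla2a was 1.31, past 2-fold, and that of Car2 was -0.11.

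All 12 genes ranked in the lower direction passed 2-fold, and without those barcodes their ratios lay between 0.32 and 0.54. Relative to the median gene, Il2rb and Zfp36l2 fell short of 2-fold. Besides Ccl4, Il2rb and the integrin Itga2, they were Lars2 (1816 and 616 CPM, 0.34), Tle3 (152 and 48.9 CPM, 0.32), Nbeal2 (0.32), Rasa1 (0.33), Gpc1 (0.32), Prrc2b (0.36), Trip12 (0.40), Zfp36l2 (558 and 260 CPM, 0.47) and Lnpep (0.42). Itga2 encodes the collagen-binding integrin chain CD49b, a standard NK marker recognised by the DX5 antibody. It stood at 234 and 97.7 CPM (ratio 0.42, 0.31 to 0.55), detected in 130 of 219 and 58 of 178 cells. At 1000 UMIs per cell the Itga2 shares were 18.8% (13.8% to 24.6%) and 14.3% (9.46% to 20.4%), and these intervals overlap. At 2000 UMIs they were 38.6% (32.0% to 45.5%) and 23.7% (17.3% to 31.2%), with intervals apart. Several of these genes had similar ratios in other lymphocytes of the same libraries: Lars2 was at 0.29 in T cells and 0.35 in B cells, Zfp36l2 at 0.42 and 0.38, and Rasa1 at 0.46 and 0.48. Lars2 and Gm42418 moved together between the libraries, while AY036118 went the other way, at 1774 CPM in IgG and 2553 CPM in EBA (1.44, 1.34 to 1.54). Whether library preparation or RNA quality had a part in the lower values was not tested.

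**Figure D2:**
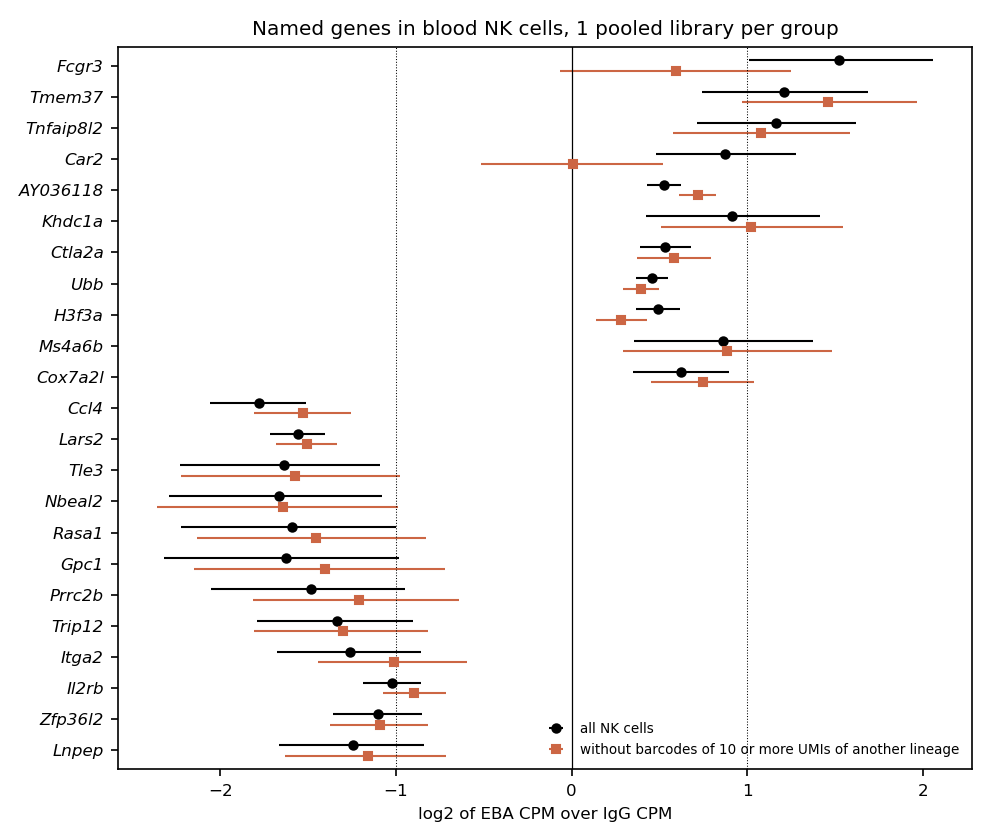
Log2 ratio of EBA CPM over IgG CPM for 23 of the 24 ranked genes (Saa3, at 0 in IgG, is not drawn), with exact 95% counting intervals, over all NK cells (circles) and without barcodes that held 10 or more UMIs of another lineage (squares). Fcgr3 and Car2 move towards 0 without those barcodes, Tmem37 moves up from 1.21 to 1.46, and all 12 lower genes stay below 0.

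Transcription factors lay lower as a group. Of 17 measured, 15 (88.2%) had a ratio under 1 against 66.1% of all measured genes, 2 were called lower (Prdm1 and Bhlhe40) and none higher, with a median log2 ratio of -0.64 against -0.20 over all measured genes. Eomes and Tbx21, the T-box factors that specify NK cells, stood at 293 and 174 CPM (ratio 0.59, 0.47 to 0.74) and at 206 and 139 CPM (0.68, 0.52 to 0.87). Id2, which is needed to keep the lineage, stood at 1656 and 1062 CPM (0.64, 0.59 to 0.70), Ets1 at 630 and 352 CPM (0.56) and Ikzf1 at 332 and 174 CPM (0.52). Klf2, a quiescence and trafficking factor, did not share this, at 1091 and 1127 CPM (1.03, 0.94 to 1.14). The same list had medians of -0.61 in T cells and -0.54 in B cells, where all measured genes had medians of -0.345 and -0.346. Relative to the median gene of each cell type, the list was at -0.45 in NK cells, -0.27 in T cells and -0.19 in B cells. In NK cells no factor was called relative to the median gene. The median was -0.55 over the 15 factors measured without the barcodes that held another lineage, and none was called.

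Receptors that place NK cells in blood and tissue were also mostly lower. Of 15 measured trafficking genes, 13 (86.7%) had a ratio under 1 against 66.1% of all measured genes, with a median log2 ratio of -0.49. Called lower were 3 of the 15, against 6.97% of all measured genes. The 3 were Cxcr4, the bone marrow retention receptor (106 and 41.7 CPM, 0.39), Cx3cr1, the fractalkine receptor of mature cells (102 and 43.1 CPM, 0.42), and Spn, which encodes CD43 (474 and 234 CPM, 0.49). The integrin chain Itga4 stood at 810 and 466 CPM (0.57). The sphingosine phosphate receptors differed less, with S1pr5 at 216 and 154 CPM (0.71) and S1pr4 at a ratio of 1.02. Relative to the median gene, Cxcr4 and Cx3cr1 were still called and Spn was not, and the same held without the barcodes that held another lineage, where Spn was at 0.58.

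The remaining lists gave few calls, and most of those came from few barcodes. Over all measured genes, 1.98% were called higher and 6.97% lower. Of 17 measured interferon response genes, Ifitm1, Ifitm2 and Ifitm3 were called higher, but they were detected in 10, 9 and 14 EBA cells with 98.2%, 79.9% and 80.2% of their EBA UMIs in 3 barcodes. These 3 genes had under 50 UMIs once the barcodes that held another lineage were left out, and none of the 11 still measured was called. Cd74 and H2-Aa, of MHC class II, were called lower, with 16 and 7 IgG cells and 96.2% and 95.6% of their IgG UMIs in 3 barcodes, and they too had under 50 UMIs without those barcodes. The actin list had S100a6, Anxa1 and Capg called higher of 22. Without the barcodes that held another lineage S100a6 was at 1.24, Anxa1 at 1.11 and Capg under 50 UMIs. Glycolysis and hypoxia genes had 9 of 12 measured ratios over 1, against 1421 of all 4189 measured genes. Their median log2 ratio was 0.42, with Pkm at 1.55 and Gapdh at 1.34, but no call. Without those barcodes Pkm was at 1.08, Gapdh at 1.04 and the list's median at 0.13. T cells had a median of 0.66 for this list, and neutrophil markers in T cells summed to 999 CPM in IgG and 71640 CPM in EBA. The part of neutrophil RNA in these values was not tested. Nuclear genes of oxidative phosphorylation, with 22 of 22 measured, had a median of -0.03 and no call. Immediate early genes had 1 called higher (Dusp1, in 8 EBA cells) and 3 lower (Cxcr4, Jun and Zfp36l2) of 24, and NF-kB targets had 3 lower of 12 (Nfkbid at 0.25, Icam1 at 0.45 and Birc3 at 0.44). Relative to the median gene only Cxcr4, Dusp1 and Nfkbid of these were still called, and without the barcodes that held another lineage Dusp1 and Birc3 had under 50 UMIs, while Gadd45b, at 0.60 over all NK cells, was called lower at 0.44. Of 8 measured cell cycle genes, Pcna was called lower (70.5 and 25.9 CPM, 0.37), also relative to the median gene and without those barcodes. None of the genes of the list for type 1 innate lymphoid cells reached 50 UMIs.

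**Figure D3:**
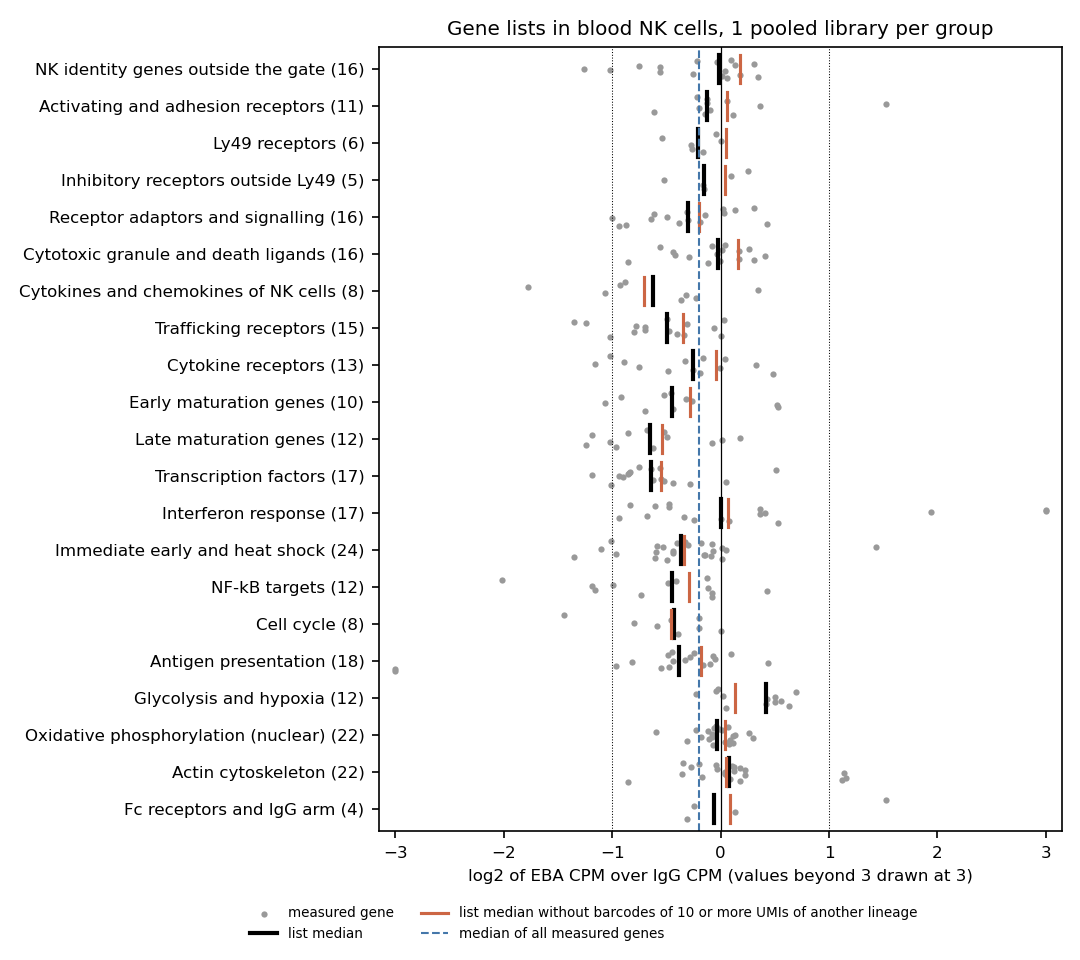
Log2 ratio of EBA CPM over IgG CPM for each measured gene (points), grouped by list, with the number measured in parentheses. Bars mark the list medians over all NK cells (black) and without barcodes of another lineage (orange), the dashed line is the median of all measured genes, -0.20, and dotted lines mark 2-fold. The lists for transcription factors (-0.64), late maturation (-0.65) and cytokines (-0.62) lie lowest, and the cytotoxic list (-0.02) lies near 0.

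Cycling NK cells were rare in both libraries. Mki67 had 34 UMIs in 6 IgG cells and 2 UMIs in 2 EBA cells. At least 10 UMIs of 11 mitosis genes were present in 2 of 219 IgG cells (0.913%, 0.111% to 3.26%) and 0 of 178 EBA cells. A count of 0 allows a share of up to 1.69% by the floor of 3 counts and up to 2.05% by the exact interval, so the libraries were not separated at this depth.

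The maturation markers Cd27 and Itgam were compared next. Cd27 (chr6:125232622-125237010), a receptor of the tumour necrosis factor family, had 67 UMIs in 45 of 219 IgG cells and 38 UMIs in 32 of 178 EBA cells. This gave 75.0 and 54.6 CPM and a ratio of 0.73 whose interval, 0.48 to 1.10, includes 1. Itgam (chr7:128062640-128118491) had 250 UMIs in 127 IgG cells and 122 UMIs in 61 EBA cells, or 280 and 175 CPM, a ratio of 0.63 (0.50 to 0.78). Neither passed 2-fold. Itgam is also a neutrophil and monocyte gene, and 3 EBA barcodes held 27.0% of its UMIs. Without the barcodes that held another lineage the Itgam ratio was 0.52 (0.40 to 0.68), and leaving out the 3 highest barcodes of each library gave 0.49. T cells, with the neutrophil marker levels given above, went the other way, from 9.37 to 80.9 CPM.

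Shares of cells were compared as well. An Itgam UMI was present in 58.0% of IgG cells (51.2% to 64.6%) and 34.3% of EBA cells (27.3% to 41.7%), and a Cd27 UMI in 20.5% (15.4% to 26.5%) and 18.0% (12.6% to 24.4%). Cells were then thinned to 1000 UMIs, which left out 1 IgG and 3 EBA cells. Itgam was then present in 25.7% (20.03% to 32.0%) and 13.7% (8.99% to 19.7%), and Cd27 in 7.80% (4.61% to 12.2%) and 3.43% (1.27% to 7.31%). At 2000 UMIs, Itgam was again lower in EBA (44.3% and 23.7%), but Cd27 was not, at 11.0% (7.07% to 16.0%) in IgG and 11.5% (6.98% to 17.6%) in EBA. In B cells at full depth, the shares were 1.62% and 2.10% for Itgam and 4.96% and 6.67% for Cd27, with median depths of 3452 and 3701 UMIs. At each depth the Cd27 intervals of the NK cells overlap, so no order is read from them, and the Itgam intervals do not overlap at any of these depths.

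Each NK cell was placed by whether it had a UMI of Cd27, of Itgam, of both or of neither. The counts were 21, 24, 103 and 71 in IgG and 21, 11, 50 and 96 in EBA, where the order is Cd27 only, both, Itgam only and neither. Itgam-only cells were thus 47.0% of IgG cells (40.3% to 53.9%) and 28.1% of EBA cells (21.6% to 35.3%). Cells with neither were 32.4% (26.3% to 39.1%) and 53.9% (46.3% to 61.4%), and Cd27-only cells were 9.59% (6.03% to 14.3%) and 11.8% (7.45% to 17.5%). These classes are ranges of UMI counts rather than cell types. A single Itgam UMI placed 52 IgG and 34 EBA cells, and a single Cd27 UMI 29 and 26. Cells with neither were the shallowest, with median depths of 3500 UMIs in IgG and 2870 in EBA, against 5080 and 3963 for Cd27-only cells.

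**Figure D4:**
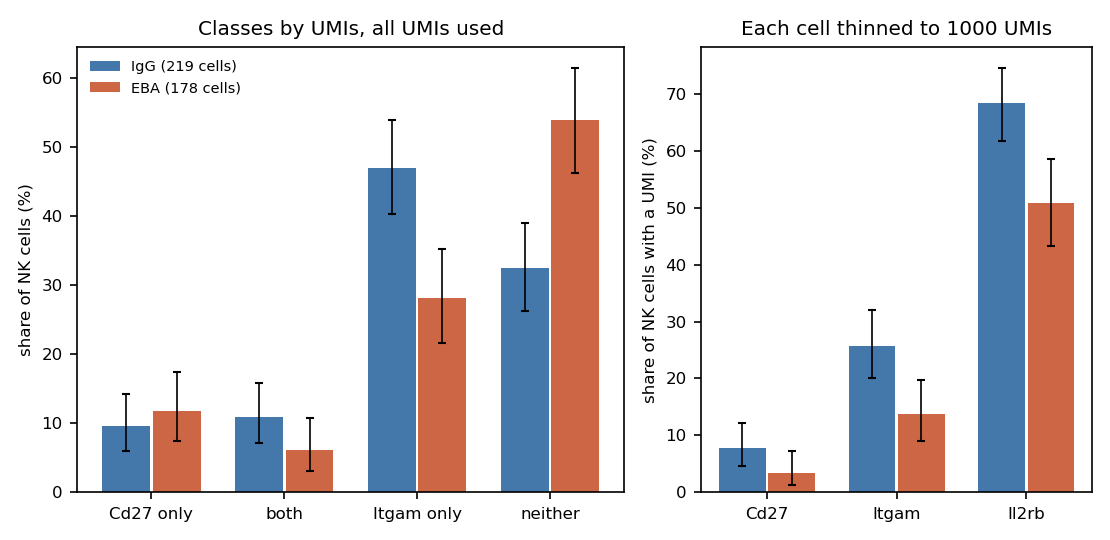
Left, share of NK cells of the IgG library (blue, 219 cells) and the EBA library (orange, 178 cells) in each class by UMIs of Cd27 and Itgam, at full depth. Right, share with a UMI of Cd27, Itgam or Il2rb after thinning to 1000 UMIs (218 and 175 cells). Bars are percentages with exact 95% counting intervals, and the intervals of the libraries are apart for Itgam-only cells, for cells with neither and, on the right, for Itgam and Il2rb. After thinning to 1000 UMIs, not drawn for the classes, the intervals of Itgam-only cells overlap.

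Other genes of the maturation sequence were mostly lower in EBA, at the early and the late stage. Of the 12 late-stage genes, all measured, 10 (83.3%) had a ratio under 1, against 66.1% of all measured genes. Called lower were 3 of them (Cx3cr1, Prdm1 and Spn), against 6.97%, and the median log2 ratio was -0.65. Klrg1, a cadherin receptor of terminally mature cells, stood at 176 and 122 CPM (0.70, 0.53 to 0.91), and Zeb2, the factor that completes maturation, at 610 and 338 CPM (0.55, 0.47 to 0.65). Ly6c2, which marks mature quiescent cells, did not share this, at 518 and 525 CPM (1.01, 0.88 to 1.16), nor did the protease gene Cma1 at 343 and 389 CPM (1.13, 0.96 to 1.34). Reads of Ly6c2 may be shared with its close copy Ly6c1. Of the 10 measured early-stage genes, 8 also had a ratio under 1 and Xcl1 was called lower, with a median of -0.45. A share of 8 in 10 is not far from the 66.1% of all measured genes, nor is 1 call in 10 from 6.97%. Without the barcodes that held another lineage the call in this list was Thy1 (0.38) in place of Xcl1 (0.55), and among late genes Cx3cr1 alone was called. Both medians were below that of all measured genes, so early and late genes lay on the same side. The late median was the lower one, also without the barcodes that held another lineage (-0.54 against -0.28). Whether the lists differed from each other was not tested.

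Within each library, Cd27-only and Itgam-only cells were compared as a check of the classes in cells that shared 1 preparation. The barcodes that held another lineage were kept in. Itgam is also a neutrophil and monocyte gene, and 6.39% of IgG and 71.3% of EBA NK cells held a neutrophil marker UMI. The part of neutrophil RNA in the classes was not tested. Genes measured with 50 or more UMIs numbered 1630 in IgG, of which 11 (0.675%) were higher and 88 (5.40%) lower in Cd27-only cells. In EBA they numbered 705, with 5 (0.709%) higher and 36 (5.11%) lower. Ranked by the library with the weaker difference, and leaving out Itgam itself, Ly6c2 came first. It stood at 75.2 CPM in Cd27-only and 623 CPM in Itgam-only cells of IgG, 8.28 times higher in the latter, and at 46.4 and 584 CPM in EBA, 12.6 times higher. The effector genes followed the same order. In IgG, Gzma was 1.85, Gzmb 2.66 and Prf1 1.71 times higher in Itgam-only cells, and in EBA 1.31, 1.87 and 1.67 times. S100a6, a calcium-binding protein gene, was 2.91 and 2.19 times higher there, and the tetraspanin gene Cd9 was 1.92 and 1.80 times. In IgG alone Serpinb9b, named after its values were seen, had a larger ratio than Ly6c2, 17.8 (3.09 to 713), which rested on 1 UMI in Cd27-only cells. In EBA it had under 50 UMIs and stood at 185 CPM in Cd27-only and 102 CPM in Itgam-only cells. None of the 8 genes ranked in the opposite direction passed 2-fold. Among them, the ribosome scaffold gene Rack1 was 1.40 and 1.65 times, the elongation factor gene Eef1a1 1.40 and 1.34 times and Tpt1 1.13 and 1.33 times higher in Cd27-only cells. The surface gene Ms4a4b was 1.45 and 1.27 times higher there, and the lymphocyte survival GTPase gene Gimap6 was 1.55 and 1.78 times.

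**Figure D5:**
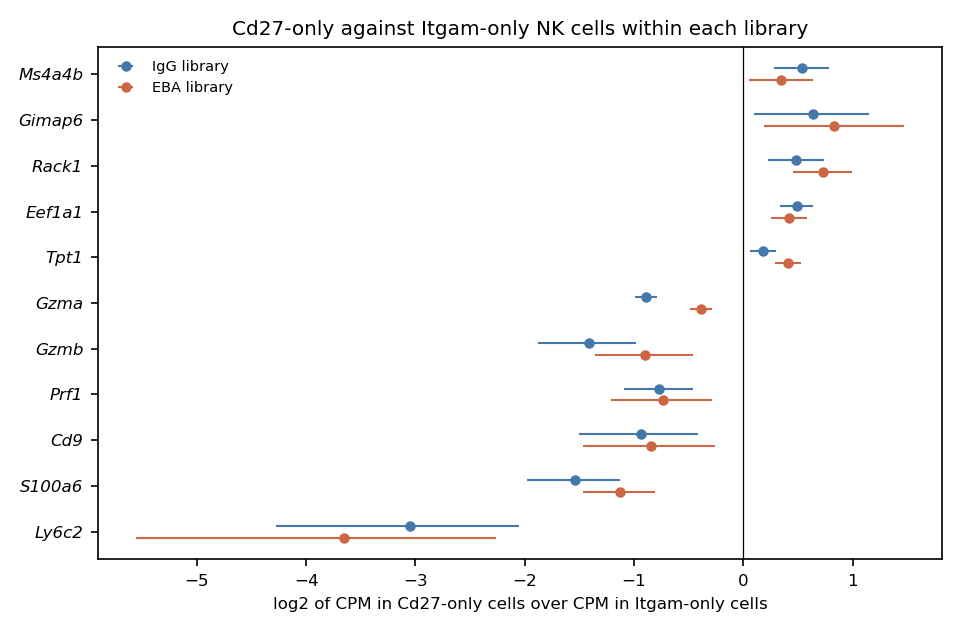
Log2 ratio of CPM in Cd27-only over Itgam-only NK cells within the IgG library (blue, 21 against 103 cells) and within the EBA library (orange, 21 against 50 cells), with exact 95% counting intervals. Ms4a4b to Tpt1 lie above 0 and Gzma to Ly6c2 below 0 in both libraries.

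Cd7, of the early-stage list, Ccr2 and Tbx21 separated the classes in IgG with a ratio nearer 1 in EBA. This difference was not tested. Ccr2 and Tbx21 are on neither stage list, and Ccr2 is also on the list of monocyte markers. Late-stage genes measured in both libraries varied in this, with Zeb2 at 0.53 in IgG and 0.62 in EBA and Cma1 at 0.41 and 0.84. Cd7 was at 329 CPM in Cd27-only and 99.4 CPM in Itgam-only cells of IgG (3.31, 2.05 to 5.33), and at 197 and 178 CPM in EBA (1.11, 0.58 to 2.03). The chemokine receptor gene Ccr2 was at 517 and 160 CPM in IgG (3.23, 2.22 to 4.70) and at 243 and 259 CPM in EBA (0.94, 0.54 to 1.59). Tbx21 was at 113 and 235 CPM in IgG (0.48, 0.24 to 0.88) and at 197 and 183 CPM in EBA (1.08, 0.57 to 1.97). Of the late-stage genes, 6 of 10 measured were called lower in Cd27-only cells of IgG, and 1 of 6 in EBA. These counts cover different genes, because Klrg1, Cx3cr1, S1pr5 and Itgax fell under the UMI minimum in EBA. On few EBA UMIs, Klrg1 was at 0.29 in IgG and 0.32 in EBA, and Cx3cr1 at 0.19 and 0.21. S1pr5 (0.41 and 1.29) and Itgax (1.59 and 4.95) were above 1 in EBA. Of the early-stage genes, 2 of 4 were called higher in IgG and 0 of 3 in EBA. Xcl1, called higher in IgG at 5.31, was at 2.06 in EBA but under the UMI minimum there. Whether the stages were less apart in EBA was not tested. Over all genes measured between Cd27-only and Itgam-only cells, 5.40% in IgG and 5.11% in EBA were called lower. Called higher were 0.675% and 0.709%.

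The lower Il2rb of EBA was seen in each class. Its ratio of EBA to IgG was 0.55 (0.41 to 0.73) in Cd27-only cells, 0.33 (0.23 to 0.46) in cells with both, 0.55 (0.45 to 0.68) in Itgam-only cells and 0.51 (0.42 to 0.62) in cells with neither. Tmem37 was higher in EBA by 2.88 times (1.04 to 9.14) in Cd27-only cells, 1.76 times (1.07 to 2.90) in Itgam-only cells and 4.29 times (2.21 to 9.10) in cells with neither, and by 1.72 times (0.52 to 6.55) in the few cells with both. Gzma in Itgam-only cells stood at 16073 CPM in IgG and 15979 CPM in EBA, a ratio of 0.99 (0.95 to 1.04). By counting intervals, Il2rb thus differed in each class, and Tmem37 in each but the cells with both. These ratios include the barcodes that held another lineage. The EBA cells with both numbered 11 and held 115198 UMIs, with a median of 5358, so few deep barcodes weigh on that class. Over all NK cells, Il2rb was not called relative to the median gene or without those barcodes, and T cells also had less of it in EBA.

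Ear skin, sequenced from the same groups, held few barcodes that met the gate, 2 of 5334 in IgG (0.0375%, 0.00454% to 0.135%) and 5 of 4281 in EBA (0.117%, 0.0379% to 0.272%). Neither of the IgG skin barcodes and 4 of the EBA skin barcodes had an Nkg7 UMI. These numbers were too small for a comparison of skin NK cells.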

How the data were processed

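Droplet single-cell RNA sequencing (3' version 3 chemistry) was measured in 4 pooled libraries, 1 per group; the 2 blood libraries, of 5008 and 5113 barcodes with 22705634 and 37508438 UMIs, are described here. Per the submitters' processing notes, the genome build was mm10 and the tools were Cell Ranger 3.0.0 and Seurat (3.0.0 and 3.1.0). The deposited values are raw UMI counts for 31053 features, with no cell annotation used. The NK gate, its members and the 22 gene lists (372 genes, 370 matched) were chosen with earlier results of these data known. UMIs were summed over gated barcodes and scaled to CPM. Ratios carry the exact conditional Clopper-Pearson interval at 95%, and shares the exact binomial one; genes with 0 UMIs were set against a floor of 3 counts. Named genes were measured list members and 12 ranked genes in each direction. Ranked genes had at least 100 CPM in the higher sum, and their interval bound nearest to 1 lay furthest from it. The ranking left out mitochondrial, ribosomal, haemoglobin, immunoglobulin, T cell receptor, gate, marker and free RNA candidate genes, gene models, Xist and Y genes. Within libraries, the 8 genes in each direction were ranked by the weaker library. Doublets were not removed; the barcodes with the highest Scrublet scores (scanpy 1.11.5) were left out as an alternative. Positions are from GENCODE release M21 (GRCm38). The method was tested on simulated data. numpy 2.4.6 and scipy 1.17.1 were used. Alternatives were left-out barcodes, other gates, scalings and thresholds.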

Additional observations from a re-analysis of the deposited data

Results flagged for a closer look

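Cx3cr1, the receptor for fractalkine, differed in opposite directions in NK and T cells of the same libraries. Its log2 ratio of EBA over IgG was -1.24 in NK cells (91 and 30 UMIs in IgG and EBA) and 1.40 in T cells, where its level was 5.43 CPM in IgG and 14.4 CPM in EBA. With 1 library in each group the difference between the cell types was not tested. Monocyte markers summed to 497 and 2800 CPM in T cells and to 743 and 1687 CPM in NK cells, and their part in the T cell value was not tested.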

How the results depend on the processing

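No paired analysis was possible because each group was 1 pooled library. Of the main results under their alternatives, 86 values were within the counting interval or within 1.5 times and 46 moved; of the values for single genes, 1938 stayed, 356 moved and 10 reversed.

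The NK share of kept barcodes (4.85% in IgG and 5.21% in EBA) moved to 6.39% and 6.86% with a mitochondrial limit of 5%, 4.17% and 4.09% without barcodes with platelet UMIs, 3.48% and 4.07% with Cd3e, Trac and Trdc also at 0, 4.08% and 2.49% without UMIs of other lineages, 3.77% and 4.37% with the gate applied after thinning to 1000 UMIs, and 6.29% and 10.9% of NK, T and B cells. In EBA alone it moved to 6.07% with a minimum of 500 genes and 3.19% without barcodes with 2 or more neutrophil or monocyte UMIs. The limits on platelet, neutrophil or monocyte, other-lineage and Cd3e, Trac and Trdc UMIs were applied to the NK cells only. Under these limits the denominator stayed at all 4512 and 3419 kept barcodes, so these shares could only fall.

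The number of genes higher in EBA (83) became 191 with 1 gate UMI, 20 without platelet UMIs, 17 without 2 or more neutrophil or monocyte UMIs, 17 without UMIs of other lineages, 24 without barcodes of 10 or more such UMIs, 14 with cells thinned to 1000 UMIs and 23 without the 3 highest barcodes of each gene. The number lower (292) became 133 relative to the median gene, 124 with TMM scaling (106 higher) and 46 with thinned cells. With other thresholds the numbers higher and lower became 206 and 769 (20 UMIs), 44 and 107 (100 UMIs), 609 and 1421 (no UMI minimum), 163 and 993 (1.5-fold) and 46 and 28 (3-fold).

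The log2 ratio of Itgam (-0.67) was -1.03 without its 3 highest barcodes per library. The share of NK cells with a Cd27 UMI (7.80% and 3.43% at 1000 UMIs) was 1.37% and 1.12% at 500 UMIs, 11.0% and 11.5% at 2000 UMIs, where EBA was not the lower, and 20.5% and 18.0% unthinned. That of Itgam (25.7% and 13.7%) was 13.2% and 4.49% at 500 UMIs, 44.3% and 23.7% at 2000 UMIs and 58.0% and 34.3% unthinned, lower in EBA at each depth.

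Dusp1 reversed, to -1.17 without platelet UMIs, -1.30 without neutrophil or monocyte UMIs, -1.02 without UMIs of other lineages, -1.37 without barcodes of 10 or more such UMIs, -2.00 with thinned cells and -0.58 as a mean of per-cell CPM. Anxa1 reversed to -0.062, -0.14 and -0.15 under the first 3 of these, and H2-Aa to 0.28 under the second, with few UMIs left. The cause of these moves was not tested.

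Alternatives with the other-lineage UMI limits of 1 or 10, the 3 highest barcodes left out and the lymphocyte denominator were chosen after seeing the data. Depth limits what can be seen: most NK cells held 0 or 1 UMI of Cd27, and genes under 50 UMIs, such as most mitosis genes, could not be compared.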
